A study of Mus musculus with 7 samples.

Results

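IRF4 and RelA binding was described at 3 genes of effector regulatory T (Treg) cells, Il10, Il1rl1 and Klrg1. The members were all peak summits of 3 deposited chromatin immunoprecipitation sequencing (ChIP-seq) lists that fell in fixed mm9 windows, which were Il10 at chr1:132820000-133020000, Il1rl1 at chr1:40400000-40600000 and Klrg1 at chr6:122140000-122320000. They came to 19 of the 10739 summits in all, of which 9 came from the wild-type (WT) IRF4 list of 5630 summits, 10 from the RelA-deficient (p65KO) IRF4 list of 4312 and 0 from the p65 list of 797. The cells of all groups were mouse Treg cells of the spleen on the C57BL/6 background. IRF4 was precipitated from WT cells (3 samples) and from p65KO cells (2 samples) after 48 h with antibodies to CD3 and CD28. RelA, also called p65, was precipitated from WT cells treated with PMA and ionomycin for 30 min (2 samples). The labels used here give no age, no driver of the RelA deletion and no word on the pooling of animals.

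Effector Treg cells are the activated fraction of the regulatory lineage that populates inflamed and non-lymphoid tissue. Il10 encodes the anti-inflammatory cytokine interleukin-10, Il1rl1 encodes ST2, the receptor chain for the alarmin interleukin-33, and Klrg1 encodes an inhibitory lectin-like receptor of highly differentiated lymphocytes. IRF4 is induced by antigen receptor signals and in T cells binds DNA largely together with AP-1 factors such as BATF, on composite elements. RelA is the main activating subunit of canonical NF-κB, and signals from the antigen receptor and from TNF receptor family members bring it to the nucleus.

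A summit is the 1 bp position of highest signal in a peak. Its score is the authors' deposited significance value on a −log10 scale, so that a higher score means a peak that stands out more from its local background. Each group has 1 list for all its samples, so no value here has a replicate error, and no test over samples could be made. Summit lists carry no read counts, so depth is unknown, and the q cut-offs differed, at 1e-06 for IRF4 and 0.05 for p65 according to the list names. The peak names carry the words No-Input, so signal that sequence attracts without the antibody was not subtracted. The median score was 26.3 in the WT IRF4 list, 27.3 in the p65KO IRF4 list and 9.61 in the p65 list. Whether the cells carried the defining markers of Treg cells was not checked, since the lists hold no expression and no mm9 gene annotation was used here.

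The windows are longer than the genes they are named for, so a summit in them is not thereby a site of that gene. In the RefSeq order of protein-coding genes of the GRCm38.p6 build, Il10 lies between the cytokine gene Il19 and the kinase gene Mapkapk2. Il1rl1 follows Il1rl2, which encodes the receptor for interleukin-36, and is followed by Il18r1 and Il18rap, the 2 chains of the interleukin-18 receptor. Klrg1 lies between Mug2 and M6pr, the latter encoding a mannose 6-phosphate receptor. Positions from that build were not set against the mm9 summits, and no summit was placed in an exon, an intron or a promoter.

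The Il10 window held 5 IRF4 summits in WT cells, 4 in p65KO cells and no p65 summit. The Il1rl1 window held 4 in WT cells, 5 in p65KO cells and no p65 summit. The Klrg1 window held no IRF4 summit in WT cells, 1 in p65KO cells and no p65 summit. IRF4 was thus called several times in the Il10 and Il1rl1 windows in both genotypes, and RelA in none of the 3 windows after its short stimulation.

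**Figure D1:**
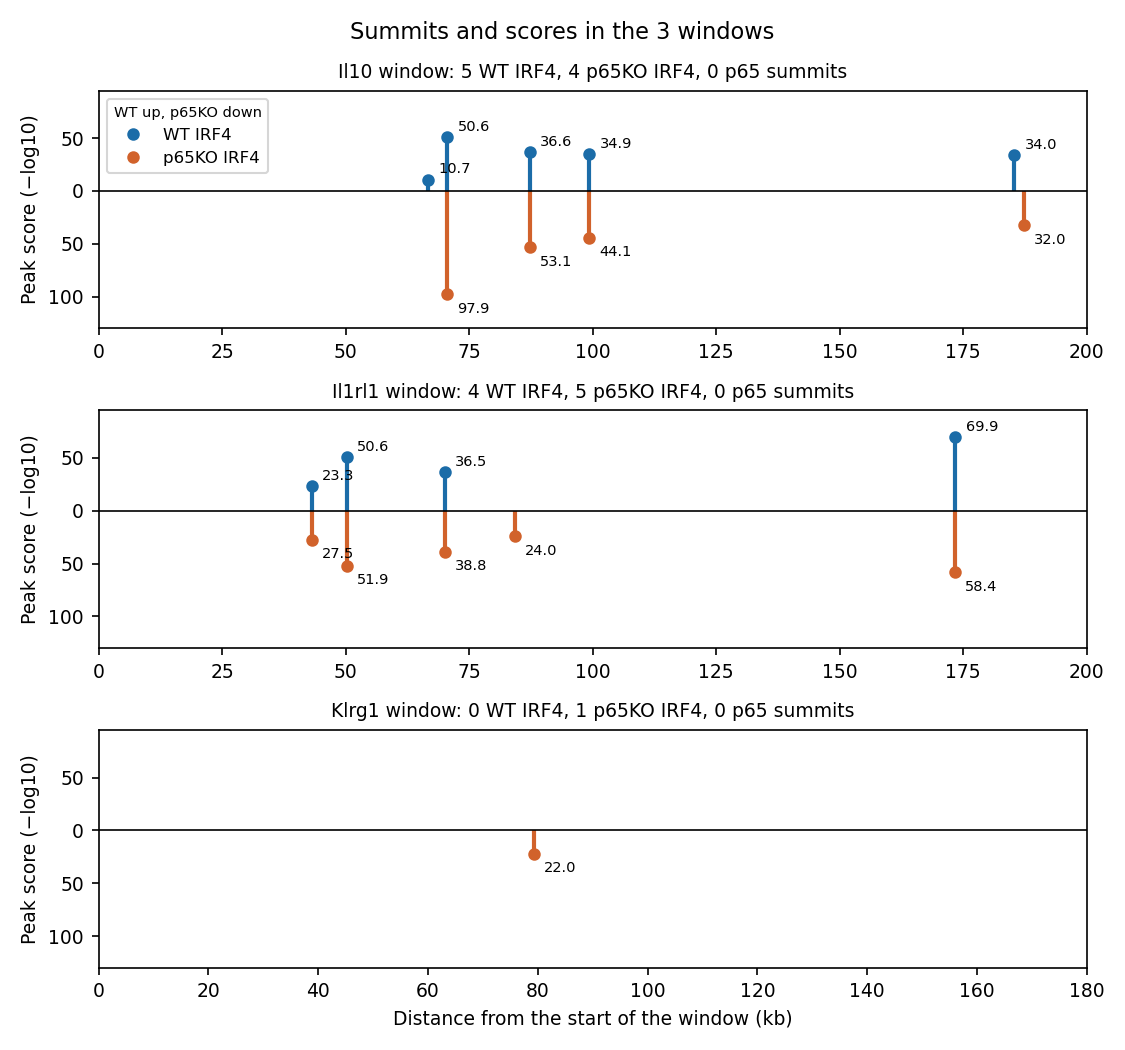
Peak score (−log10) of every IRF4 summit against its distance from the start of the window in kb, with WT summits pointing up (blue) and p65KO summits pointing down (orange). In the Il10 window the tallest summit scored 50.6 in WT and 97.9 in p65KO cells, the Il1rl1 window has summits of both genotypes at 4 positions and 1 further p65KO summit, and the Klrg1 window has 1 summit, in p65KO cells.

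To read these counts, the placed chromosomes were divided into 13142 consecutive windows of 200 kb, up to the last summit of each chromosome. The WT IRF4 list had at least 5 summits, the Il10 count, in 1.06% of them and at least 4, the Il1rl1 count, in 2.21%. The p65KO IRF4 list had at least 4 summits, the Il10 count, in 1.26% and at least 5, the Il1rl1 count, in 0.616%. Both windows thus held more summits than most windows of either genotype, against a mean of 0.421 WT and 0.325 p65KO summits per window. The reference took in all stretches of the placed chromosomes, whatever their genes. The Il10 and Il1rl1 windows were placed at named genes, with earlier results of these data known. No reference of windows at other genes was made, so whether these loci are densely bound for a gene was not tested. For the 180 kb of Klrg1, 21.4% of 14601 windows had at least 1 WT IRF4 summit and 18.4% at least 1 p65KO IRF4 summit. An empty window in WT cells, as at Klrg1, was the usual case, at 78.6% of the windows of 180 kb. Exactly 1 p65KO IRF4 summit, as at Klrg1, was found in 12% of them. A p65 summit was present in only 2.24% of the windows of 200 kb and 2.08% of those of 180 kb, so a window without one, as at these 3 genes, is the usual case in this short list.

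**Figure D2:**
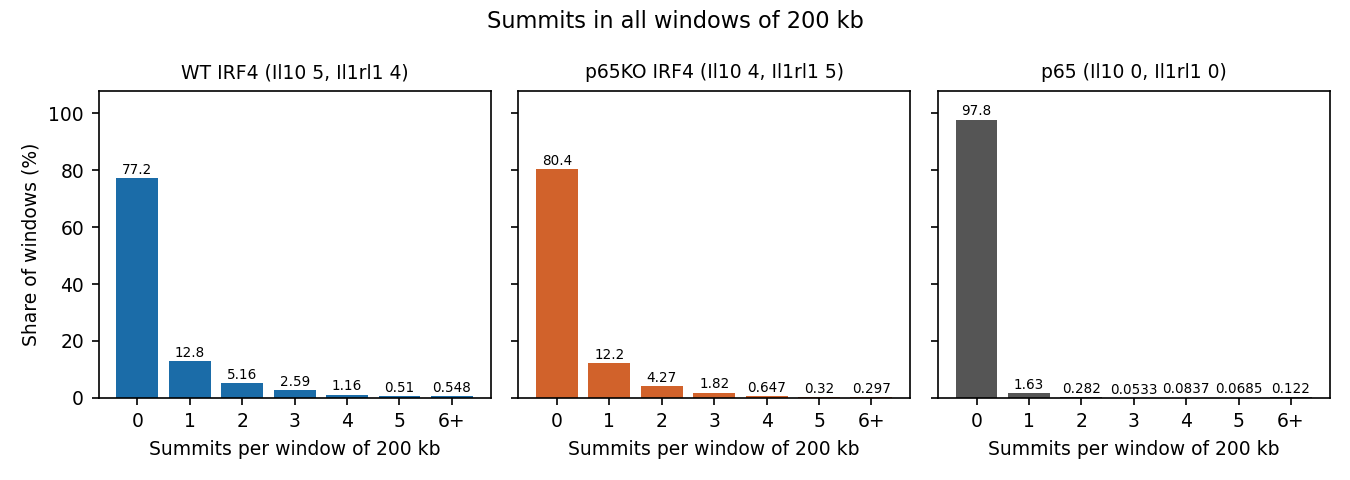
Share of all windows of 200 kb (%) by the number of summits they hold, for each list; 6+ means 6 or more, and the counts of the Il10 and Il1rl1 windows stand above each panel. Windows with 0 summits make up 77.2% for WT IRF4, 80.4% for p65KO IRF4 and 97.8% for p65.

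At Il10, 4 of the 5 WT summits lay together and 1 lay apart. The first, at 132886638, scored 10.7 and ranked 5529 of 5630, among the weakest summits of the WT list. The second, at 132890544, was the strongest of the locus in WT, with a score of 50.6 and rank 1109. The next 2, at 132907277 and 132919307, scored 36.6 and 34.9. These 4 were separated by gaps of 3.91, 16.7 and 12.0 kb. The last, at 133005340, scored 34.0 and lay 86.0 kb beyond them, towards the far end of the window.

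In p65KO cells the same trio in the middle of the Il10 window was called, with higher scores. The summit at 132890546 scored 97.9 and ranked 279 of 4312, which put it above 93.5% of the p65KO list, against 80.3% of the WT list for its WT partner. The summit at 132907219 scored 53.1 and the one at 132919316 scored 44.1. The last, at 133007201, scored 32.0. It lay 1861 bp from the last WT summit, too far to count as the same position, so 1 summit of each genotype stood near the end of the window without a partner.

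A WT and a p65KO summit were taken as a matched pair when they were each other's nearest and no more than 200 bp apart. Of the WT summits, 3 of 5 at Il10 and 4 of 4 at Il1rl1 had a p65KO partner, against 64.4% of the whole WT list. Of the p65KO summits, 3 of 4 at Il10, 4 of 5 at Il1rl1 and 0 of 1 at Klrg1 had a WT partner, against 84.1% of the whole p65KO list. Matching rises with score, so like scores are the closer reference. In the decile of the WT list that held the weak first Il10 summit, 28.2% had a partner. In the decile that held the last Il10 summit, 81.3% had one. The 2 unmatched WT summits at Il10 were therefore 1 from a decile where most lack a partner and 1 from a decile where most have one. The unmatched p65KO summit of the window, at 133007201, came from a decile of its list in which 90.3% had a WT partner.

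Matching allowed up to 200 bp between the summits of a pair. The Il10 pairs were 2, 58 and 9 bp apart, and the Il1rl1 pairs 23, 6, 17 and 31 bp. The median over all 3625 pairs was 17 bp and the upper quartile 35 bp. The Il10 pair at 132907277 was the widest of the 7, and 88.8% of all pairs were as close or closer.

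All 3 Il10 pairs scored higher without RelA. The pair at 132890544 had a p65KO score 1.94 times that of WT (log2 ratio 0.95), the pair at 132907277 one of 1.45 times (0.54) and the pair at 132919307 one of 1.26 times (0.34). Over all pairs, 42.2% scored higher in p65KO, with a median log2 ratio of -0.11 and quartiles of -0.50 and 0.25, so the 3 Il10 ratios all lay above the upper quartile. A p65KO score of at least 1.5 times the WT score was met by the first Il10 pair, by none of the other 6 pairs of the windows, and by 9.82% of all pairs. Log2 ratios of 0.95 or more occurred at 99 of the 3625 pairs (2.73%), and ratios of at least 0.54 and 0.34 at 11.2% and 19.8%. The ratio also moves with the WT score itself. Pairs in the WT decile of the first Il10 pair had a median of -0.29 and an upper quartile of 0.06, and those in the decile of the other 2 a median of -0.28 and an upper quartile of 0.12.

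All consecutive windows of 200 kb give a reference for a run of pairs in 1 direction, a reference chosen after the values were seen. The Il10 and Il1rl1 pairs were not left out of it, so the run at Il10 is itself among those counted. Of 299 such windows with at least 3 pairs, every pair scored higher in p65KO in 7.02%. Windows with more than 3 pairs, where a run in 1 direction is harder to reach, are among them. The share for windows of exactly 3 pairs, as at Il10, was not computed. The nearest pairs outside the Il10 window went the other way. At 132799236, which is 20.8 kb before the window, IRF4 scored 36.3 in WT and 30.9 in p65KO cells, and the next pair after the window, 256 kb away, scored 55.5 and 32.9. The higher p65KO scores were thus seen at the 3 central Il10 summits and not at the nearest pair on either side. The log2 ratio before the window, -0.24, lay between the quartiles of all pairs, and that after it, -0.76, lay below them. Pairs in the WT decile of the former had a median of -0.28 and a lower quartile of -0.74. Those in the WT decile of the latter had a median of -0.29 and a lower quartile of -0.70. The pair before the window was thus near the median for its WT score, and the pair after it was near the lower quartile. With 1 pair on each side, whether the higher scores are confined to these summits was not tested. The scores come from 1 list per genotype, from 3 WT and 2 p65KO samples of unknown depth, so how much such a ratio varies between replicates is unknown.

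**Figure D3:**
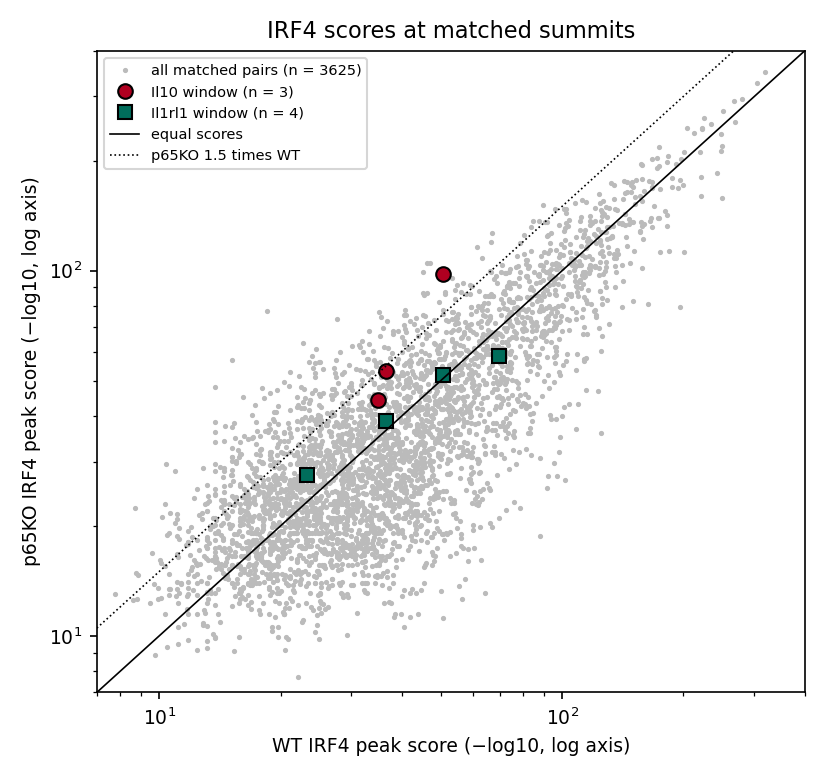
Score of each matched IRF4 pair in WT (x axis) and p65KO cells (y axis), both −log10 significance on log axes; grey points are all 3625 pairs, red circles the 3 Il10 pairs and green squares the 4 Il1rl1 pairs. The Il10 pairs lie above the line of equal scores, the first of them above the dotted line of 1.5 times, and the Il1rl1 pairs lie close to the line of equal scores, 3 above and 1 below.

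Of the 3 genes, Il1rl1 was matched in the RefSeq promoter table (build GRCm38.p6), with 2 annotated starts. The 250 bases before each start are shown as the regulatory sequence at hand for a gene whose window IRF4 occupied in both genotypes. Both are on the plus strand, written 5′ to 3′, and belong to another build than the summits, so their positions cannot be set against the mm9 windows. They are at chr1:40429320-40429569 for the upstream start and chr1:40439379-40439628 for the downstream start. All letters are in lower case because none of the 6 motifs named next was found in them.
Upstream start: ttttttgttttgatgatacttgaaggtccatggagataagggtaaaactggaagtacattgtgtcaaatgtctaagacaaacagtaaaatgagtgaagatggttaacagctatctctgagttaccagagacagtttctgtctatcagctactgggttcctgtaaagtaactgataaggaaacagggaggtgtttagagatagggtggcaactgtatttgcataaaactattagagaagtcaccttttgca
Downstream start: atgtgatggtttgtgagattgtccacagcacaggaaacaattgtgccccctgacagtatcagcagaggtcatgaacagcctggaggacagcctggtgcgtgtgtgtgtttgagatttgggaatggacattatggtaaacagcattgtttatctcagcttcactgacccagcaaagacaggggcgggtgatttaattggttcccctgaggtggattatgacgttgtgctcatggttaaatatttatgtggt

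The motifs were searched on both strands, and their shares are over the 250 bases before 32851 annotated starts. They were 2 copies of GAAA with 2 bases of any kind between them (2.98%), GGAA and GAAA with 2 bases between (2.30%), and the AP-1 element TGANTCA (6.75%). The remaining ones were TTTC and TGANTCA with 4 bases between (0.0974%), GAAA directly before TGANTCA (0.100%) and the κB element of GGG and TTTCC with 2 bases between (1.41%). Those with TGANTCA overlap the AP-1 element by construction. Each of the 6 was found in at most 6.75% of the promoters, and their absence here says nothing about sites elsewhere in the locus.

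At Il1rl1 each of the 4 WT summits had a p65KO partner, and p65KO cells had 1 summit more. The WT summits at 40443145, 40450201 and 40470072 scored 23.3, 50.6 and 36.5, and their p65KO partners scored 27.5, 51.9 and 38.8. The summit at 40573357 was the strongest of the window in both lists, with a score of 69.9 in WT (rank 650) and 58.4 in p65KO cells (rank 735). In WT it lay 103 kb beyond the third summit, and the first 3 were separated by gaps of 7.06 and 19.9 kb. The log2 ratios of p65KO to WT, in order of position, were 0.24, 0.04, 0.09 and -0.26. All lay between the quartiles of all pairs, and the 3 higher in p65KO compare with 42.2% of all pairs. On percentile ranks within each list 2 were higher, because the pair at 40450201 then stood lower in p65KO, by -0.862 percentage points. The highest ratio at Il1rl1 was 0.24 and the lowest at Il10 was 0.34. These 2 pairs differ in WT score. Pairs in the WT decile of the former had quartiles of -0.37 and 0.38, and those in the decile of the latter -0.74 and 0.12. How often other windows are set apart in this way was not computed. A difference between the loci was not tested, because summits of 1 locus are not replicates.

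One Il1rl1 summit was called in p65KO cells alone. It lay at 40484206, 14.2 kb after the third pair, with a score of 24.0 and rank 2488 of 4312. The nearest WT summit was 14.1 kb away. In its decile of the p65KO list 86.8% of summits had a WT partner. Outside the window, the nearest pair, 107 kb before it at 40293132, scored 80.1 in WT and 43.3 in p65KO cells. The next pair after the window, 2680 kb away at 43281254, went the other way, with 19.6 in WT and 47.0 in p65KO cells. The log2 ratio was -0.89 before the window, with 10.3% of all pairs as low or lower. After the window it was 1.26, which 0.662% of all pairs reached. Pairs in the WT deciles of these scores had medians of -0.17 and 0.05. Whether a pair so far from the window bears on Il1rl1 was not tested.

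At Klrg1 the single summit, of p65KO cells, lay at 122219288 and scored 22.0. It ranked 2739 of 4312, above 35.9% of its list, and the nearest WT summit was 179 kb away. In its decile of the p65KO list 79.1% of summits had a WT partner. The closest IRF4 position called in both genotypes was at 122398000, which is 78.0 kb after the end of the window. There the score was 24.0 in WT and 58.5 in p65KO cells, a log2 ratio of 1.29 that 0.607% of all pairs reached. Pairs in the WT decile of that score had a median of -0.02 and an upper quartile of 0.38, above those of all pairs. Before the window, the nearest pair was 1370 kb away at 120769593, with scores of 18.1 and 20.1.

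No IRF4 summit of the windows had p65 nearby. Within 200 bp, a p65 summit accompanied 0 of 9 IRF4 summits in WT and 0 of 10 in p65KO cells, against 4.00% and 4.15% of the whole lists, so a count of 0 among so few is no departure from the background. The distances to the nearest p65 summit have no whole-list reference here. The p65 list is sparse, with a summit in only 2.24% of all windows of 200 kb. From the Il10 summits the nearest p65 summit, at 140041869 with a p65 score of 8.73, was between 7030 and 7160 kb away. From the Il1rl1 summits it was at 44878873, with a score of 4.67, at 4310 to 4440 kb. From the Klrg1 summit it was at 113618854, with a score of 14.1, at 8600 kb. RelA was mapped after 30 min of PMA and ionomycin and IRF4 after 48 h of receptor stimulation, so the 2 factors were not mapped in the same state of the cells.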

How the data were processed

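Each of the 3 groups has 1 summit list deposited by the authors, named in the labels of all its samples. MACS2 2.1.0, Subread and featureCounts are named with the build mm9, per the submitters' processing notes; settings and the handling of replicates: not given in the sources used here. The deposited score is −log10 of a p-value or q-value, which of them is not stated; the lowest values are 7.64, 7.50 and 1.92, above −log10 of the q cut-offs (6 and 1.3). Nothing says whether replicates came from separate animals.

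Groups came from the sample titles and windows from the rule. Ranks and shares were computed within each list with Python 3.11.15, numpy 2.4.6 and pandas 2.3.3, and plots with matplotlib 3.10.9. Matching was tested on simulated data. No test was run, because each group has 1 list. Every summit in the windows is described; outside them, the nearest summits and, for the highest WT summit of a window, the 3 pairs nearest in log2 score are named. Members, windows and lists were chosen with earlier results of these data known. Alternatives were other matching distances, window borders, list lengths, score scales and offsets of the windows. A planned list of other effector Treg genes was not analysed, since no mm9 annotation was used here, and no sequence was read at the summits.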

Additional observations from a re-analysis of the deposited data

How the results depend on the processing

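Of 80 alternative values, 78 kept their direction or stayed within 1.5 times the reported count or within the counting interval of the reported share. Part of these could not have changed. A count of 0 stays 0 in a narrower window or a shorter list, and without a WT summit at Klrg1 no partner could be found. Equal list lengths left the p65KO list whole, and the rescaling could only raise the ratios. The count of 78 therefore overstates how far the results were put to the test. When each list was limited to scores above its own median, the Klrg1 window held 0 p65KO IRF4 summits in place of 1. On percentile ranks within each list, the Il1rl1 pair at 40450201 stood lower in p65KO than in WT, by -0.862 percentage points, in place of a log2 ratio of 0.04. Scaling the p65KO scores to a median log2 ratio of 0 over all pairs raised the 3 Il10 ratios to 1.06, 0.65 and 0.45. Allowing partners within 2 kb, a distance added after the lists were seen, brought the Il10 window from 3 to 4 matched WT summits. The added pair, at 133005340, scored 34.0 in WT and 32.0 in p65KO cells. At that distance the Il10 pairs therefore no longer all scored higher in p65KO. The IRF4 windows held no p65 partner within 1 kb or 10 kb. No paired analysis was possible because each group has 1 list without values per replicate, and for the same reason no replicate could be left out. Read depth is unknown, so a summit missing from a list was not called at that cut-off and is not shown to be unbound.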

Other observations

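The matched pairs elsewhere on placed chromosomes whose 2 IRF4 scores came nearest to those of the strongest Il10 summit, measured as distance in log2 score over the 2 lists, were 3. Position 38403978 of chromosome 16 scored 53.3 in WT and 95.7 in p65KO cells. Position 128283712 of chromosome 2 scored 47.0 and 105, and position 43694338 of chromosome 16 scored 55.0 and 91.6. Their nearest p65 summits were 5360, 530 and 74.3 kb away. For the strongest Il1rl1 summit they were position 91011518 of chromosome 6 (71.2 in WT and 57.8 in p65KO), position 24953315 of chromosome 16 (70.6 and 59.7) and position 33839308 of chromosome 17 (68.1 and 59.3). There p65 summits were 8820, 568 and 2530 kb away. The genes at these positions were not assigned.

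One further WT IRF4 summit stood just outside the Il10 window, 2.67 kb after its end at 133022666, with a score of 20.4. The nearest p65KO IRF4 summit after the window was 256 kb from its end. With the window widened by 50 kb on each side, Il10 had 7 WT and 5 p65KO IRF4 summits.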
